A study of Mus musculus with 12 samples.

Results

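The BCL2 family genes described here are 10 genes chosen by name: Bcl2, Bcl2l1, Bcl2a1b, Bcl2a1d, Bax, Bak1, Bcl2l11, Bad, Bid and Bbc3. They are 10 of the 5545 genes analysed, and all 10 passed the filter on low counts that left 2606 genes for testing. RNA was sequenced from NK cells and group 1 innate lymphoid cells (ILC1) of the livers of 3 lean and 3 obese C57BL/6 mice (female C57BL/6J in the study's methods), which gave 4 groups of 3 libraries. Both cell types of a mouse were sorted from the same liver, so the libraries of mice 25, 26 and 27 in each diet group form pairs, while a number shared between the diet groups joins no animals. Lean mice were kept on the standard chow RM1. Obese mice received a high-fat diet (824018, 45% AFE) with condensed milk from weaning, for 12 weeks. Cells negative for a cocktail of lineage markers and positive for NK1.1 were sorted as NK cells when CD49a- CD49b+ and as ILC1 when CD49a+ CD49b-, and libraries were made from 2 ng of RNA. The obese group thus differs from the lean group in chow, fat content and condensed milk together, and the labels name no transgene or gene deletion.

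Proteins of the BCL2 family decide whether the outer membrane of the mitochondrion is opened, the committing step of intrinsic apoptosis. Prosurvival members such as BCL-2, BCL-XL and A1 hold the effectors BAX and BAK in check, and the BH3-only proteins BIM, BAD, BID and PUMA relay stress, cytokine withdrawal or death receptor signals by binding the prosurvival proteins or the effectors. In lymphocytes these RNAs are tuned by cytokines: BCL-2 is maintained by common gamma chain cytokines such as interleukin-15, on which NK cells depend, and A1 is induced by NF-kB.

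The identity of the sorted cells was checked first. Cma1, the 1 NK cell marker of 5 listed that was analysed, took 0.273 to 0.464% of the counts in NK libraries and at most 0.0396% in ILC1 libraries. The 3 of 6 ILC1 markers analysed, Cxcr6, Cd200r1 and Cxcr3, together took 1.12 to 1.79% in 5 ILC1 libraries and 0.0159 to 0.102% in NK libraries. The obese ILC1 library of mouse 26 stood apart, with 0.296% from these ILC1 markers and 0.896% from 8 genes shared by NK cells and ILC1, against 5.32 to 8.55% in the other 11 libraries. The 10 hepatocyte markers analysed took 9.22% of its counts, against at most 0.0509% elsewhere, and the 8 Kupffer cell, 6 B cell and 4 neutrophil markers took 1.28%, 0.609% and 0.168%, each the highest of the 12 libraries. A further pair of libraries lacked many transcripts. Of the genes with at least 50 normalised counts in both other libraries of the group, 20% in obese ILC1 of mouse 25 and 14.8% in lean NK cells of mouse 27 had at most 3 counts, against at most 0.98% in the other 10 libraries. The 8 T cell markers summed to 0.807 to 0.929% in lean ILC1, 0.258 to 0.771% in obese ILC1 and 0.0485 to 0.113% in NK cells. Cd3g had 12045, 13149 and 13275 counts in lean ILC1 against 129, 222 and 211 in lean NK cells. Cd3d, Cd3e and Cd5 also lay higher in lean ILC1, while Cd4 and Cd28 overlapped. Cd8a and Cd8b1 were at 0 in all 6 lean libraries. In obese ILC1 of mouse 26 Cd8a, Cd8b1, Cd4 and Cd5 had 201, 448, 334 and 253 counts, each the highest of the 12 libraries. Its Cd3g and Cd28, at 1991 and 433 counts, were the lowest of the ILC1 libraries, and its Cd3d and Cd3e lay within the range of the other ILC1 libraries. The part of T cell transcripts in the differences between ILC1 and NK cells was not tested. Totals ran from 1666637 to 2826766 counts per library over the genes analysed, which understates the depth. In bulk RNA of this kind, fewer cells of a type and less RNA per cell cannot be told apart.

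Among the 10 genes, those for the prosurvival protein A1 were higher in ILC1 than in NK cells. Bcl2a1b was 3.88-fold higher and Bcl2a1d was 7.92-fold higher over lean and obese mice. Bcl2 ran in the same direction in lean mice at 2.01-fold without passing the adjusted threshold. Both effector genes, Bax and Bak1, had adjusted p-values of 0.7 and 0.928 for ILC1 against NK cells over lean and obese mice, and no gene of the family passed the threshold between lean and obese mice.

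A1 is encoded in the mouse by several nearly identical genes on chromosome 9, and their sequences are given first because they bear on how far the counts of Bcl2a1b and Bcl2a1d can be told apart. On GRCm38 the annotation places Bcl2a1b at chr9:89199209-89207827 on the plus strand and Bcl2a1d at chr9:88723285-88731914 on the minus strand. Their coding sequences without the stop codon, are both 516 bases long and differ at 6 positions, 98.8% of positions being identical. Shown are coding positions 1 to 300, counted from the start codon, at chr9:89199360-89199659 and chr9:88731420-88731719. Capitals mark 3 of the differing positions, and the other 3 lie further downstream.
Bcl2a1b coding: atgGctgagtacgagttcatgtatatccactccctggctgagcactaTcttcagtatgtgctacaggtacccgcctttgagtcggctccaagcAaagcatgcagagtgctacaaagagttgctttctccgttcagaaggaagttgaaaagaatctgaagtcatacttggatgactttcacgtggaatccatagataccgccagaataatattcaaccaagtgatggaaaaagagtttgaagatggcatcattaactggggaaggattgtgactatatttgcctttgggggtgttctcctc
Bcl2a1d coding: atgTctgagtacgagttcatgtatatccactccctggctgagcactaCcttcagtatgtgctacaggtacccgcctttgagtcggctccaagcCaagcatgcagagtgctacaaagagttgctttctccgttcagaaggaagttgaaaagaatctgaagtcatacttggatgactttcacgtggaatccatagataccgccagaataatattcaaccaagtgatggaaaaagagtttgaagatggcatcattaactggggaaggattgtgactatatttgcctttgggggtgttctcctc
Of all stretches of 50 bases in the annotated transcript, 20.8% for Bcl2a1b and 20.5% for Bcl2a1d occurred in the transcripts of no other gene, rising to 43.2% and 45.3% for stretches of 100 bases. A read from the remainder fits more than 1 of these genes. How the authors' counting treated such reads is not given in the sources used here, so the split of counts between Bcl2a1b and Bcl2a1d is uncertain. The third intact copy, Bcl2a1a, differed at 11 coding positions from Bcl2a1b and at 7 from Bcl2a1d, and Bcl2a1b also shares 401 exonic bases with the gene Gm29094 on its own strand.

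The bases just before both genes are shown because the counts of both were higher in ILC1. The part of reads shared between the copies in this likeness was not tested. They are taken from RefSeq promoters of GRCm38.p6, at chr9:89199023-89199164 on the plus strand for Bcl2a1b and chr9:88731915-88732050 on the minus strand for Bcl2a1d, and end before the annotated start of either gene. Capitals mark the base that differs and the 6 bases found in Bcl2a1b alone, at 95.1% identical positions.
Bcl2a1b upstream: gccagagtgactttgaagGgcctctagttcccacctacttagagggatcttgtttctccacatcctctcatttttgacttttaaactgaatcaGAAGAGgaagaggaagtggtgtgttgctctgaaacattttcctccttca
Bcl2a1d upstream: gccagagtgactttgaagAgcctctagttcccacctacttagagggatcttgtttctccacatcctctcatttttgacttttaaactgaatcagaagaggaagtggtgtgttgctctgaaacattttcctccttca
No match to the NF-kB motif, to the palindrome TTCNNNGAA bound by STAT proteins or to the cAMP response element TGACGTCA was found on either strand in the whole promoter windows of these 2 genes, running from 250 bases before to 50 after the RefSeq start. Across all 32851 promoters, 4.51%, 8.3% and 1.79% held these motifs. Among the 10 genes, 1 of 3 annotated promoters of Bcl2l1 and 1 of 3 of Bbc3 held an NF-kB match, and no promoter of the 10 genes held either of the others. A match or its absence describes these letters in these windows only.

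Bcl2a1b had 349, 326 and 529 normalised counts in NK cells of lean mice 25, 26 and 27, and 339, 356 and 256 in those of obese mice 25, 26 and 27. The normalised count is the deposited value, a count divided by a factor for each library. In ILC1 it had 1195, 1185 and 1143 in lean mice and 1771, 1674 and 1555 in obese mice, in the same order. All 6 ILC1 libraries lay above all 6 NK libraries, and within ILC1 the 3 obese libraries lay above the 3 lean ones. The 8 Kupffer cell markers analysed ran the same way, at 0.0506, 1.28 and 0.0985% of the counts in obese ILC1 against at most 0.0193% in lean ILC1, and their part in this separation was not tested. The log2 fold change of ILC1 against NK cells was 1.95 ± 0.17 (SE; edgeR's quasi-likelihood test, Benjamini-Hochberg adjusted p = 8.23e-05). The value was 1.57 ± 0.24 in lean mice (adjusted p = 0.00516, edgeR) and 2.34 ± 0.24 in obese mice (adjusted p = 0.00223, edgeR).

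Bcl2a1d was less abundant, with 46, 49 and 47 normalised counts in lean NK cells and 43, 71 and 55 in obese NK cells. It rose to 258, 315 and 403 in lean ILC1 and to 265, 591 and 733 in obese ILC1. Here too all 6 ILC1 libraries lay above all 6 NK libraries, but lean and obese ILC1 overlapped. ILC1 exceeded NK cells by a log2 fold change of 2.98 ± 0.35 (adjusted p = 0.00048, edgeR), with 2.79 ± 0.49 in lean mice (adjusted p = 0.0115, edgeR) and 3.18 ± 0.50 in obese mice (adjusted p = 0.0112, edgeR). Bcl2a1d made up 8.15 to 17.7% of the joint counts of the pair in NK libraries and 13.0 to 32.0% in ILC1 libraries.

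A gene was called when its adjusted p was under 0.05 and its fold change over 2. In the comparison over lean and obese mice, 2 of the 10 genes were called, both higher in ILC1, where 3.15% of all tested genes were called higher and 4.34% in either direction. The 2 called genes, Bcl2a1b and Bcl2a1d, are nearly identical copies. How their shared reads were counted is not known, so the calls and shared patterns of these 2 may not be separate results. The same 2 were called in lean mice, where 1.5% of tested genes were called higher, 0.806% lower and 2.3% in either direction. They were also called in obese mice, where 0.537% were called higher, 0.384% lower and 0.921% in either direction. At an unadjusted p under 0.05 stood 5 of the 10 genes over lean and obese mice, 4 of 10 in lean mice and 3 of 10 in obese mice, beside 19%, 13.3% and 14.2% of tested genes. Both genes were higher in the ILC1 library than in the NK library of the same mouse in 6 of 6 mice, a pattern shown by 5.3% of tested genes, and their 6 ILC1 libraries lay wholly above the 6 NK libraries, as did 2.88% of tested genes, while no member lay wholly below, as did 2.88%. When the mouse was added to the model as a block, both remained called over lean and obese mice, with adjusted p of 0.00655 for Bcl2a1b and 0.017 for Bcl2a1d (edgeR). Within a single diet group neither was then called: the adjusted p with the block was 0.0724 and 0.11 in lean mice and 0.0731 and 0.148 in obese mice (edgeR). With the 6 obese libraries alone in the model neither was called in obese mice (adjusted p = 0.108 and 0.149, edgeR). Bcl2a1d was also not called there without any 1 of the obese NK libraries of mice 25, 26 and 27 (adjusted p = 0.113, 0.0674 and 0.105, edgeR), nor in lean mice without lean NK 25 or 26 or lean ILC1 26 or 27 (adjusted p = 0.0812, 0.0737, 0.0517 and 0.0517, edgeR). Without the obese ILC1 library of mouse 26 and without a block, both genes stayed called in obese mice, with log2 fold changes of 2.35 and 3.12 (adjusted p = 0.000787 and 0.0208, edgeR). In that library Bcl2a1b and Bcl2a1d stood at 1674 and 591 normalised counts while its markers of ILC1 were low, and the part of other cells' transcripts in these 2 values was not tested.

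**Figure D1:**
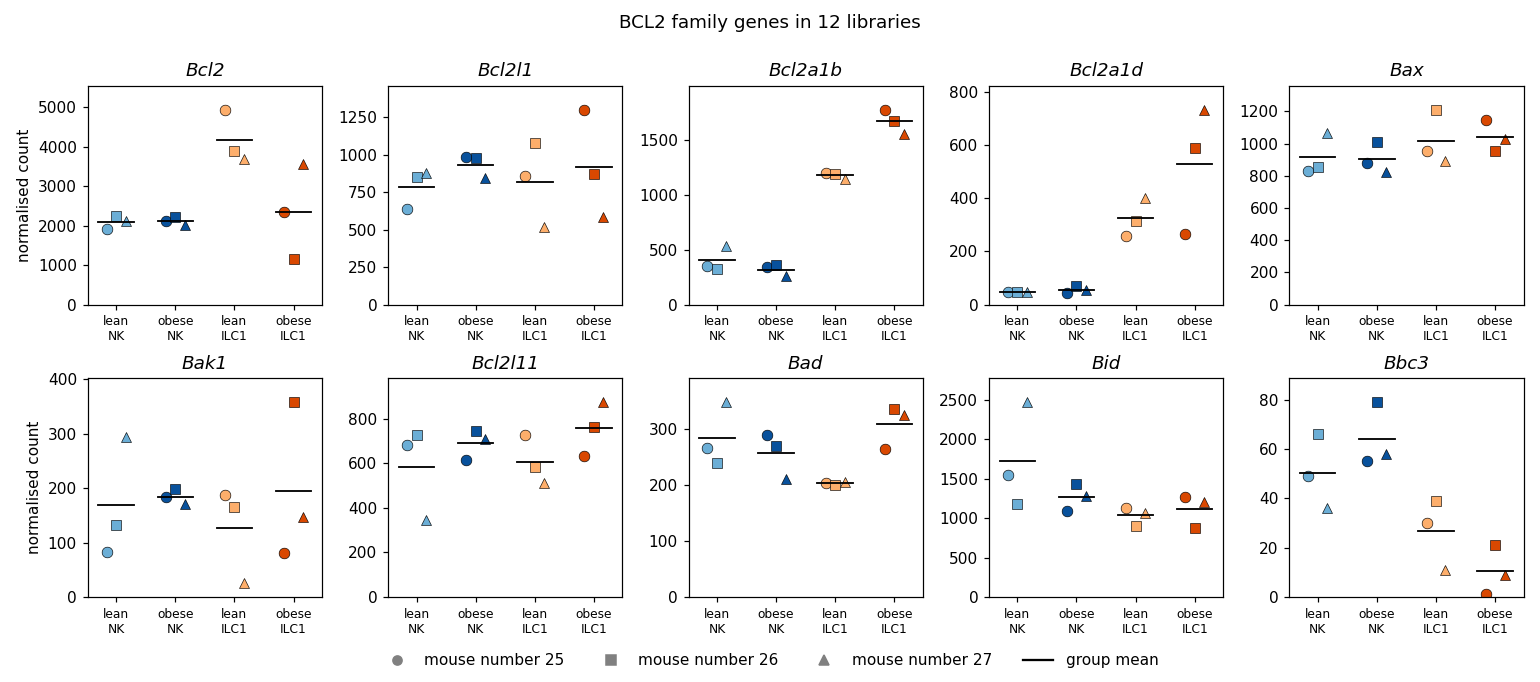
Normalised counts of the 10 BCL2 family genes (y axes, linear, from 0) in lean NK cells, obese NK cells, lean ILC1 and obese ILC1 (x axes). Each symbol is 1 library, its shape gives the mouse number and the line is the mean of 3 libraries. Bcl2a1b and Bcl2a1d separate ILC1 from NK cells completely, whereas obese ILC1 are widely spread for Bcl2, from 1151 to 3553.

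Bcl2 itself, the founding prosurvival gene (chr1:106538178-106714274, minus strand), had 1911, 2254 and 2123 normalised counts in lean NK cells and 2129, 2231 and 2013 in obese NK cells. Lean ILC1 had 4939, 3894 and 3687, all above every NK library. Obese ILC1 had 2355, 1151 and 3553, which were all below the lean ILC1 libraries and overlapped the NK libraries. The 6 NK libraries were thus close together, while the obese ILC1 libraries ran from 1151 to 3553. The value 2355 came from the library of mouse 25 with many missing transcripts, and 1151 from that of mouse 26 with hepatocyte transcripts. The library of mouse 27, at 3553, lay next to the lowest lean ILC1 value of 3687.

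In lean mice Bcl2 was 2.01-fold higher in ILC1 (log2 fold change 1.01 ± 0.33), with an unadjusted p of 0.0118 and an adjusted p of 0.192 (edgeR). With the 6 lean libraries alone in the model the adjusted p was 0.0131 (edgeR) and the fold change just passed 2. In obese mice the log2 fold change was 0.11 ± 0.33 (adjusted p = 0.961, edgeR). Without lean NK 27, obese ILC1 25 and obese ILC1 26 it was 0.71, an alternative chosen after seeing the data that leaves 1 obese ILC1 library. Within mice, Bcl2 was higher in ILC1 than in NK cells in 5 of 6, the exception being obese mouse 26, whose ILC1 library held the hepatocyte transcripts. Obese against lean ILC1 gave a log2 fold change of -0.84 ± 0.33 with an unadjusted p of 0.0282 and an adjusted p of 0.366 (edgeR), where 10.6% of all tested genes had an unadjusted p under 0.05. Without the ILC1 library of obese mouse 26 that difference was -0.49 (adjusted p = 0.476, edgeR), and without that of obese mouse 27 it was -1.30 (adjusted p = 0.0898, edgeR). Over the 21 alternatives run it ranged from -1.30 to -0.22. Leaving out the ILC1 library of obese mouse 26, ILC1 against NK cells over lean and obese mice moved from 0.56 (adjusted p = 0.218) to 0.71 (adjusted p = 0.00732, edgeR). Both values were under the 2-fold threshold. Without both libraries of that mouse and with the mouse as a block, Bcl2 was at 0.71 (adjusted p = 0.0868, edgeR). Leaving out the ILC1 library of obese mouse 27 instead, without a block, it was 0.33 (adjusted p = 0.386, edgeR). Some 558 bases of Bcl2 exons are shared with the antisense transcript D630008O14Rik, and whether the counting used strand is not given in the sources used here.

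Bcl2l1, which encodes BCL-XL (chr2:152780668-152831728, minus strand), ranged from 636 to 983 normalised counts in NK cells and from 515 to 1301 in ILC1. Its ILC1 libraries spanned the whole range of its NK libraries, in both directions. ILC1 against NK cells gave a log2 fold change of -0.0041 ± 0.24 (unadjusted p = 0.987, edgeR), and within mice ILC1 were higher in 3 of 6. In lean NK cells it had 636, 854 and 876 and in obese NK cells 983, 976 and 844 normalised counts (log2 fold change 0.28 ± 0.34, adjusted p = 1, edgeR).

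Of the effector genes, Bax (chr7:45461697-45466898, minus strand) was the most even. It had 830 to 1063 normalised counts in lean NK cells, 821 to 1011 in obese NK cells, 891 to 1209 in lean ILC1 and 951 to 1149 in obese ILC1. The 4 groups overlapped throughout, and its log2 fold change was 0.16 ± 0.15 for ILC1 against NK cells, 0.02 ± 0.21 for obese against lean NK cells and 0.00 ± 0.21 for obese against lean ILC1.

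Bak1, the other effector (chr17:27019810-27029009, minus strand), varied more between libraries than between groups. It had 83, 132 and 294 normalised counts in lean NK cells, 184, 199 and 170 in obese NK cells, 188, 165 and 26 in lean ILC1 and 81, 358 and 147 in obese ILC1. The ILC1 range enclosed the NK range, and the standard error of its log2 fold change between the cell types within a diet group was 0.80, the widest of any member but Bbc3. Bak1 shares 614 exonic bases with Ggnbp1 on the opposite strand, and Bax 192 bases with Gm45808 on its own strand.

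Bcl2l11 encodes BIM, the BH3-only protein that acts on cytokine withdrawal in lymphocytes (chr2:128126038-128162547, plus strand). It had 683, 728 and 346 normalised counts in lean NK cells, 615, 746 and 709 in obese NK cells, 727, 584 and 511 in lean ILC1 and 633, 765 and 875 in obese ILC1. The lowest value belonged to lean NK cells of mouse 27, 1 of the 2 libraries with many missing transcripts, and the groups overlapped. Between the cell types the log2 fold change was 0.07 ± 0.22 and that between obese and lean ILC1 0.29 ± 0.32 (adjusted p = 0.935 and 0.838, edgeR).

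Bad, whose product is held inactive by survival kinases (chr19:6941861-6951899, plus strand), had 265, 239 and 347 normalised counts in lean NK cells and 289, 269 and 210 in obese NK cells. In lean ILC1 it had 203, 200 and 205, below the 3 lean NK libraries, and in obese ILC1 264, 335 and 325, above the 3 lean ILC1 libraries. In lean mice the log2 fold change of ILC1 against NK cells was -0.47 ± 0.35 and in obese mice 0.21 ± 0.35. The interaction of diet and cell type was 0.68 ± 0.49 with an adjusted p of 0.974 (edgeR), so the opposite signs were not shown to differ. Bad shares 524 exonic bases with Gpr137 on the opposite strand.

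Bid links death receptors to the mitochondrion after cleavage by caspase-8 (chr6:120891930-120916853, minus strand). It had 1545, 1173 and 2469 normalised counts in lean NK cells and 1092, 1432 and 1276 in obese NK cells. Lean ILC1 had 1132, 904 and 1063, all under the lean NK libraries, and obese ILC1 had 1273, 877 and 1210, which overlapped the obese NK libraries. The log2 fold change of ILC1 against NK cells was -0.48 ± 0.20, with an unadjusted p of 0.0347 and an adjusted p of 0.215 (edgeR), and ILC1 were lower than NK cells in 5 of 6 mice. Lean NK cells of mouse 27, with many missing transcripts, held the highest Bid value. In lean mice the log2 fold change was -0.72 ± 0.28 with that library and -0.40 without it. Bid shares 628 exonic bases with Bcl2l13 on the opposite strand.

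Bbc3, which encodes the p53-induced protein PUMA (chr7:16308393-16318205, plus strand), was the scarcest member. It had 49, 66 and 36 normalised counts in lean NK cells and 55, 79 and 58 in obese NK cells, against 30, 39 and 11 in lean ILC1 and 1, 21 and 9 in obese ILC1. ILC1 were lower than NK cells in 6 of 6 mice, as were 6.14% of tested genes, and in obese mice the groups did not overlap, as for 15.5% of tested genes in that direction. Its log2 fold change was -1.81 ± 0.73 over lean and obese mice (unadjusted p = 0.0309, adjusted p = 0.203, edgeR) with -0.89 ± 1.01 in lean mice (adjusted p = 0.886, edgeR) and -2.73 ± 1.07 in obese mice (adjusted p = 0.268, edgeR). The gene was not called by edgeR, while DESeq2 called it lower in both comparisons, with log2 fold changes of -1.80 and -2.71 (adjusted p = 0.00881 and 0.00998, DESeq2). The lowest value was a single count, in the obese ILC1 library of mouse 25 in which many transcripts were missing. Without that library edgeR gave -1.55 over lean and obese mice (adjusted p = 0.15) and -2.21 in obese mice (adjusted p = 0.247), and without the obese ILC1 library of mouse 26 it gave -3.68 in obese mice (adjusted p = 0.229).

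Groups that did not overlap were counted in CPM. In lean mice 3 of the 10 genes (Bcl2, Bcl2a1b and Bcl2a1d) lay wholly higher in ILC1 and 2 (Bad and Bid) wholly lower, beside 13.6% and 11.1% of tested genes. In obese mice 2 (Bcl2a1b and Bcl2a1d) lay wholly higher and 1 (Bbc3) wholly lower, beside 8.6% and 15.5%. Between diets, 1 gene (Bcl2l1) lay wholly higher in obese NK cells and 0 lower, beside 11.6% and 5.53% of tested genes. The Bcl2l1 groups were apart by 439 against 434 CPM only. In normalised counts they overlapped, with 844 in obese NK cells of mouse 27 against 854 and 876 in lean NK cells of mice 26 and 27. In ILC1 2 genes (Bcl2a1b and Bad) lay wholly higher and 1 (Bcl2) wholly lower in obese mice, beside 7.21% and 8.71%.

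**Figure D2:**
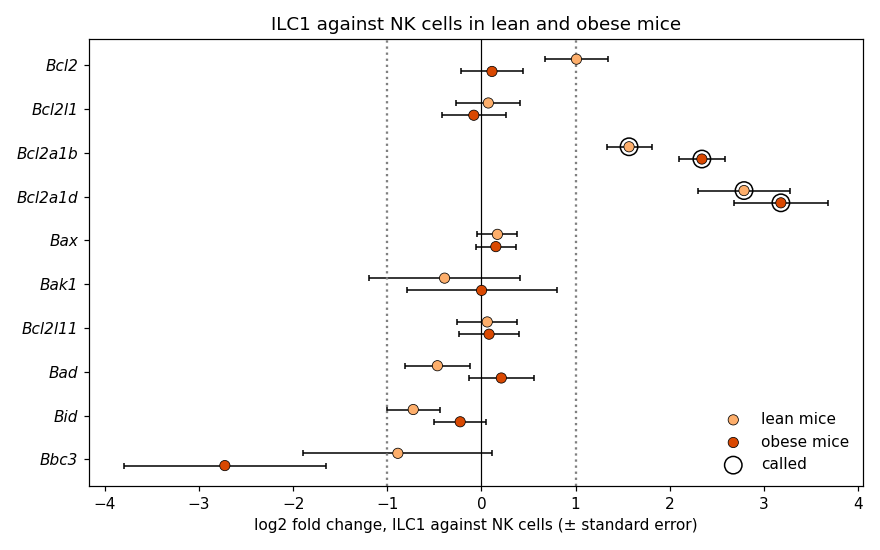
Log2 fold change of ILC1 against NK cells (x axis) for each of the 10 genes (y axis) in lean and obese mice, from edgeR's model of all 12 libraries. Points are estimates, bars are ± 1 standard error, dotted lines mark a 2-fold change and rings mark called genes, which are Bcl2a1b and Bcl2a1d in both diet groups.

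To compare the genes with each other, CPM (counts scaled to the library total of analysed counts, with TMM factors) were divided by the length of merged exons in kilobases. In lean NK cells the order of these per-length levels was Bax at 293 ± 35.8 (SD, n = 3), Bcl2a1b at 247 ± 64.3, Bid at 245 ± 90.6, Bcl2 at 115 ± 8.75, Bcl2l1 at 86.7 ± 13.5, Bad at 55.8 ± 10.2, Bcl2l11 at 37.0 ± 13.6, Bak1 at 35.3 ± 22.4, Bcl2a1d at 27.7 ± 1.15 and Bbc3 at 12.0 ± 3.61 CPM per kilobase. Bax, Bcl2a1b and Bid overlapped with their neighbours in this order, as did Bcl2l11, Bak1 and Bcl2a1d, and the other steps separated the libraries. The order of the group means was the same in obese NK cells. In ILC1, by contrast, Bcl2a1b stood first, at 732 ± 25.9 CPM per kilobase in lean and 1016 ± 69.0 in obese mice, with no overlap with Bax in the next place (329 ± 56.1 and 330 ± 40.7).

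Bcl2a1d moved from the place before last in NK cells to the 4th in lean ILC1 (192 ± 40.6 CPM per kilobase) and the 3rd in obese ILC1 (306 ± 141), where its range overlapped that of Bax. Bcl2 was 3rd in lean ILC1 at 232 ± 39.8 and 5th in obese ILC1 at 130 ± 69.6 CPM per kilobase. Bbc3 was last in all 4 groups. With the longest annotated transcript as the length, 12 of the 40 places changed, each by 1 place, through Bcl2l1, Bid and their neighbours, while Bcl2a1b kept the first place in ILC1 and Bax in NK cells. Whether reads shared between A1 copies were counted is not known, so the places of Bcl2a1b and Bcl2a1d are uncertain. Had such reads been dropped, the full exon length would understate both levels. Bcl2a1b would then keep the first place in ILC1 and could stand before Bax in NK cells too. Had such reads been counted for each copy, both levels would be overstated.

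**Figure D3:**
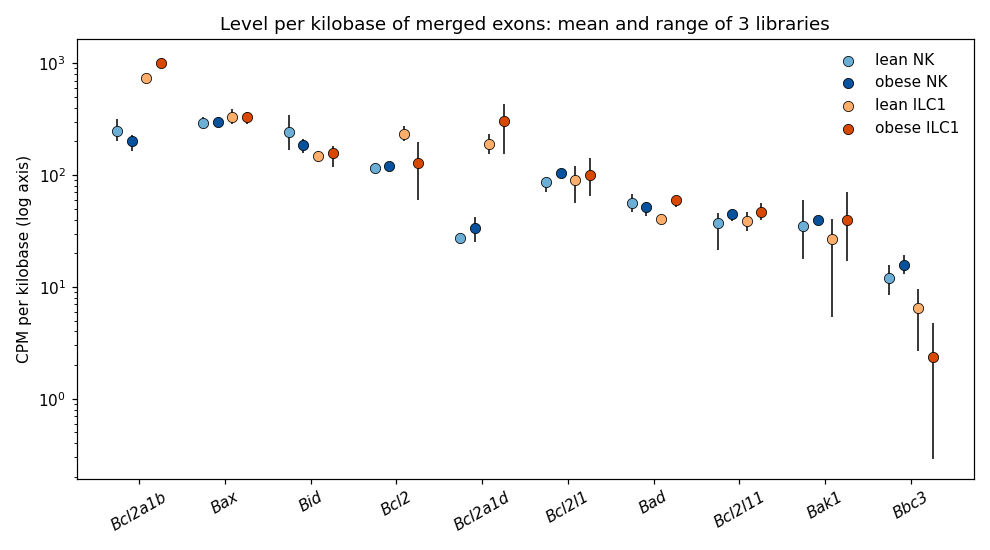
Level per length of each gene, in CPM per kilobase of merged exons on a log axis, for 4 groups. Points are means and vertical lines the range of 3 libraries. Bcl2a1b is highest in both ILC1 groups, and Bbc3 is lowest in all groups.

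The RNA of Bcl2 against that of Bcl2l11, which encodes the antagonist BIM, and against that of Bax was described within each library. The measure was a log2 ratio of counts per kilobase, which no scaling of libraries changes. No test was applied, because the genes were chosen with results known. Bcl2 against Bcl2l11 was 1.29, 1.44 and 2.43 in lean NK cells and 1.601, 1.391 and 1.315 in obese NK cells. In lean ILC1 the ratio was 2.58, 2.55 and 2.66, above all NK libraries, and in obese ILC1 it was 1.71, 0.40 and 1.83, below all lean ILC1 libraries. The ratio was higher in ILC1 than in NK cells of the same mouse in all lean mice and in obese mice 25 and 27, and lower in obese mouse 26.

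Bcl2 against Bax followed the same pattern in lean mice, at -1.34, -1.14 and -1.54 in NK cells and -0.17, -0.85 and -0.49 in ILC1, again without overlap. Both ratios share Bcl2, while Bcl2l11 and Bax differed by log2 fold changes of 0.06 and 0.17 between the cell types in lean mice. The second ratio is therefore no separate evidence. In obese mice it was -1.26, -1.40 and -1.24 in NK cells and -1.503, -2.263 and -0.747 in ILC1, which lay on both sides of the NK libraries. The mean difference of ILC1 from NK cells in obese mice was -0.12 for the ratio to Bcl2l11 and -0.20 for the ratio to Bax. Without the ILC1 library of mouse 26 these became 0.33 and 0.18, so their sign rests on that library.

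**Figure D4:**
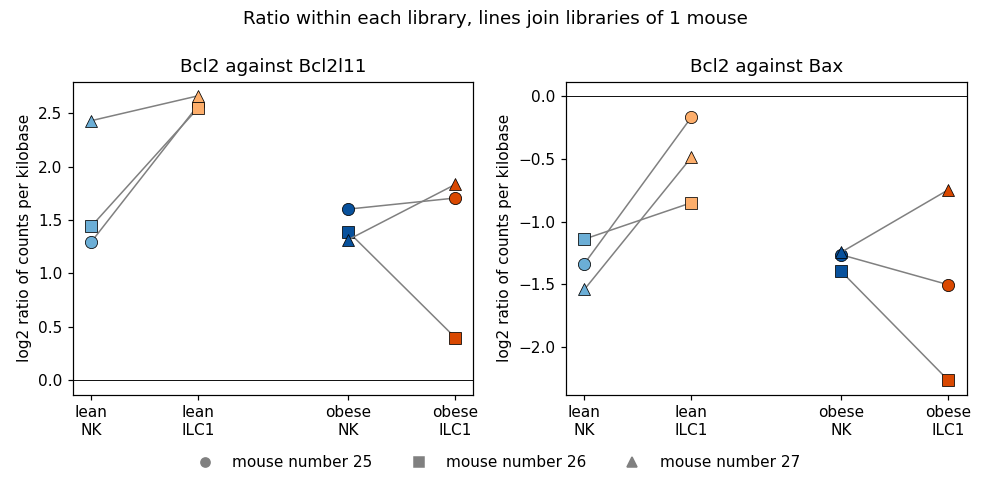
Log2 ratio of counts per kilobase of Bcl2 to Bcl2l11 (left) and to Bax (right) in each library (y axes, horizontal line at 0), with NK cells and ILC1 of lean and obese mice on the x axes. Lines join the 2 libraries of a mouse. All 3 lean mice go up from NK cells to ILC1 in both ratios, and obese mouse 26 goes down most.

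The diet comparisons of the 10 genes gave no call. Between obese and lean NK cells, 0 of 10 passed in edgeR's quasi-likelihood test or in DESeq2 and 0 of 10 had an unadjusted p under 0.05, against 0% and 1.19% of all tested genes in edgeR. Between obese and lean ILC1, 0 of 10 passed with either tool and 1 of 10, Bcl2, had an unadjusted p under 0.05, against 0% and 10.6% of all tested genes in edgeR. Bcl2a1b in ILC1 was 1.39-fold higher under the obese diet (0.47 ± 0.23 on the log2 scale, with an adjusted p of 0.496, edgeR), and in NK cells its log2 fold change was -0.30 ± 0.23 (adjusted p = 1, edgeR). No member was called for the interaction of diet and cell type with either tool, and 1 of 10, Bcl2a1b, had an unadjusted p under 0.05, against 5.95% of all tested genes. The interaction was 0.77 ± 0.33 for Bcl2a1b (unadjusted p = 0.0393, adjusted p = 0.793, edgeR) and -0.90 ± 0.47 for Bcl2 (unadjusted p = 0.0823, adjusted p = 0.868, edgeR). A difference in the response of ILC1 and NK cells to diet was therefore not shown for either gene. The median log2 fold change of the 10 genes was 0.11 in NK cells and 0.21 in ILC1, beside 0.09 and 0.02 for all tested genes.

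Other genes of the pathway were followed in 4 lists. Of 18 further BCL2 family genes, 15 were analysed and 10 tested, and 0 were called in any of the 6 comparisons by edgeR, with 3 of 10 at an unadjusted p under 0.05 for ILC1 against NK cells beside 19% of all tested genes. Bcl2a1a, the third A1 copy, had 0, 0 and 0 normalised counts in lean NK cells, 2, 0 and 0 in obese NK cells, 11, 1 and 1 in lean ILC1 and 0, 354 and 26 in obese ILC1. Its highest value lay in the library of mouse 26 with the neutrophil, B cell and Kupffer cell transcripts (log2 fold change of ILC1 against NK cells 6.44 ± 1.90, adjusted p = 0.0913, edgeR), and the part of those cells in it was not tested. Bik, a BH3-only gene, had at most 7 normalised counts in NK cells and 35, 51 and 19 in lean and 2, 105 and 50 in obese ILC1 (3.68 ± 1.23, adjusted p = 0.115, edgeR). Bnip2, which encodes a protein first found as a partner of BCL-2, had 1110 to 1728 normalised counts in NK cells and 631 to 1430 in ILC1 (log2 fold change -0.58 ± 0.20, unadjusted p = 0.0138, adjusted p = 0.123, edgeR). Mcl1, Hrk and Pmaip1 were not analysed here.

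Of a list of 16 genes of the apoptosome, caspases, their regulators and the Aifm genes, 13 were analysed and tested, and 0 were called in any comparison (edgeR). For ILC1 against NK cells 0 of 13 had an unadjusted p under 0.05, beside 19% of all tested genes, the lowest values belonging to Apaf1, the scaffold of the apoptosome (log2 fold change -0.97 ± 0.46, adjusted p = 0.295, edgeR), and Casp2 (0.32 ± 0.27, adjusted p = 0.643, edgeR). Between obese and lean ILC1 it was 2 of 13, beside 10.6% of all tested genes, Casp2 at 0.88 ± 0.38 and Birc2 at -0.47 ± 0.21 (adjusted p = 0.42 and 0.43, edgeR). Casp2 had 1607, 819 and 689 normalised counts in obese ILC1 against 521, 383 and 754 in lean ILC1. Its highest value and the lowest of Apaf1 (45) lay in obese ILC1 of mouse 25, and the highest of Apaf1 (562) in lean NK cells of mouse 27. Both libraries lacked many transcripts. Of 5 genes on the death receptor side that reaches BID, Casp8 and Cflar were analysed, with log2 fold changes between the cell types of -0.07 ± 0.11 and -0.02 ± 0.19.

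Of 15 kinases, chaperones and transcription factors that act on the family, all were tested and 0 were called in any comparison (edgeR). For ILC1 against NK cells 13 of 15 had a negative log2 fold change, as had 47.5% of all tested genes, with a median of -0.40 beside 0.04 for all tested genes, and 2 of 15 an unadjusted p under 0.05, beside 19%. These were Bcap31, an endoplasmic reticulum protein cleaved by caspase-8 (-0.25 ± 0.09, adjusted p = 0.162, edgeR), and the survival kinase gene Akt2 (-0.49 ± 0.22, adjusted p = 0.248, edgeR).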

How the data were processed

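RNA of sorted liver NK cells and ILC1 from 3 lean and 3 obese mice was sequenced on a NextSeq 500. The authors deposited raw counts per gene and, as a score, the same counts divided by a factor for each library and rounded. The submitters' processing notes name bcl2fastq 2.19, Trimmomatic 0.36.5, STAR 2.5.2b, featureCounts 1.6.0.2 and mm10. Strand and multi-mapping settings are not given in the sources used here. The study's differential expression used SARTools, filtering on adjusted p and fold change. The deposited table also holds fold changes and p-values of the authors' own comparisons, which were not used. The 5545 genes with complete rows, up to Cyp26b1 in alphabetical order, were analysed, 1 incomplete row was left out and later genes were not analysed here. Libraries were grouped by their labels.

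Counts were tested in R 4.3.3 with edgeR 4.0.16 (TMM, filterByExpr, glmQLFit and glmQLFTest, 1 model of 4 groups and 12 libraries) and Benjamini-Hochberg adjustment over 2606 genes. A gene was called at a fold change over 2 with an adjusted p under 0.05. Standard errors were obtained from the log2 fold change and the F statistic. The test was tested on simulated data. Overlap of groups was counted in CPM. Gene positions and lengths came from the GENCODE annotation of GRCm38, the assembly of mm10. Members and gene lists were chosen with earlier results of these data known. The 10 members are always named, and from each list the called genes or, with none, the 2 with the smallest unadjusted p, with Bnip2 and the genes of single comparisons added, after their values were seen, for a low p in that comparison. The single-gene values of 1 listed gene are not reported here. Both libraries that share a mouse number within a diet group were made from 1 animal, per the labels, and their deviations from group means correlated at -0.0816 to 0.148 across genes. For NK and ILC1 libraries of different mice in a diet group the range was -0.165 to 0.197, which encloses the former. Alternatives were DESeq2 1.42.0, its size factors in edgeR, no filter, at least 10 counts in every library, a replicate block, the compared libraries alone, no threshold on the fold and libraries left out. The replicate block was the mouse for the cell type comparisons and the interaction. For the diet comparisons it was the number shared between diet groups.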

Additional observations from a re-analysis of the deposited data

How the results depend on the processing

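The 2 calls of Bcl2a1b and Bcl2a1d over lean and obese mice held under all 21 alternatives run, with 3 genes called by DESeq2, which added Bbc3. The 0 calls of both diet comparisons and of the interaction held under all 21 alternatives each. In lean mice 16 of 22 alternatives and in obese mice 16 of 22 gave a count within 1.5 times of 2. For the cell type comparisons the replicate block pairs the libraries of a mouse. It left 0 calls in lean mice and 0 in obese mice, also without both libraries of obese mouse 26, an alternative chosen after seeing the data. For the diet comparisons the block instead followed the number shared between diet groups, which joins no animals. Compared libraries alone left 0 calls in obese mice, with adjusted p of 0.108 for Bcl2a1b and 0.149 for Bcl2a1d. Leaving out single libraries gave 1 to 2 calls in lean mice and 1 to 2 in obese mice. The call lost was always Bcl2a1d, without lean NK 25 or 26 or lean ILC1 26 or 27 (adjusted p = 0.0812, 0.0737, 0.0517 and 0.0517) and without obese NK 25, 26 or 27 (adjusted p = 0.113, 0.0674 and 0.105, edgeR). Without lean NK 27, obese ILC1 25 and obese ILC1 26, also chosen after seeing the data and leaving 1 obese ILC1 library whose spread was assumed to match the other groups, 2, 3 and 2 members were called over both diets, in lean and in obese mice. The third was Bcl2 (adjusted p = 0.00121, edgeR). The log2 fold change of Bcl2 turned sign for ILC1 against NK cells in obese mice under the replicate block (-0.044). Over single libraries left out it ran from -0.34 without obese ILC1 27 to 0.44 without obese ILC1 26, and without the 3 libraries named above it was 0.71. For obese against lean NK cells it ran from -0.00168 without lean NK 25 to 0.12 without lean NK 26. Of 806 values of other members under alternatives, 91 changed sign, and none was called. With the longest transcript as the length, 12 of 40 places in the order of levels changed.

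Counts over all tested genes moved more than those of the members. From 113, 60, 24, 0, 0 and 0 genes over both diets, in lean mice, in obese mice, between diets in NK cells and in ILC1 and in the interaction, DESeq2 called 222, 151, 154, 8, 77 and 21, and leaving out the 3 libraries named above gave 245, 219, 154, 5, 28 and 18. The replicate block gave 46, 21 and 0 for the first 3 and 2 for the diet comparison of ILC1, where it joined different mice by a shared number only. The causes were not tested.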
